A study of Mus musculus with 96 samples.

Results

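The genes described here are Sst, Hhex and Ghsr, the somatostatin and identity genes of the islet delta cell. They were picked from the expression table by gene symbol, 3 of 21990 rows, with no rule on their values. Expression was measured by RNA sequencing in islets and liver of the same 48 male C57BL/6N mice, 96 libraries in all. The mice were bought at 4 weeks of age and fed chow (CD, from LabDiet, with 13.5% fat) or a high-fat diet (HFD, Research Diets D12492 with 60% fat) for 4, 8, 12, 16, 20 or 24 weeks. Each group of 1 diet and 1 week held 4 mice, different mice at each week, and all mice were otherwise untreated and of the same strain. Islets were freed with collagenase P, separated on a gradient and picked by hand, so each islet library is a mixture of all islet cell types and of whatever exocrine tissue remained. Values are FPKM, fragment numbers scaled to transcript length and library size, so levels may be compared between genes per transcript length.

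Delta cells are a minor endocrine cell type of the islet. They release somatostatin, which acts on neighbouring alpha and beta cells through G protein-coupled receptors and lowers the release of glucagon and insulin. Sst encodes the somatostatin precursor. Hhex encodes a homeobox transcription factor that adult delta cells need to stay delta cells, and it is also used by liver cells and endothelium. Ghsr encodes the receptor for ghrelin, which in the islet is found chiefly on delta cells and through which ghrelin raises somatostatin release.

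Sst lies on the minus strand at chr16:23889581-23890844, Hhex on the plus strand at chr19:37434822-37440731 and Ghsr on the plus strand at chr3:27371311-27379225 in the deposited annotation of GRCm38. The promoter windows below come from RefSeq on GRCm38.p6, 1 for each of the 3 genes, and run from 250 bases before to 50 bases after the gene start used for the window. That start is the deposited one for Sst but differs from the deposited one for Hhex and Ghsr, and motif positions count from it. The windows are shown because the 3 genes moved together with diet, as described further on. The window of Sst is chr16:23890795-23891094 on the minus strand, that of Hhex is chr19:37434591-37434890 on the plus strand and that of Ghsr is chr3:27371101-27371400 on the plus strand. Capitals mark matches, on either strand, to the cAMP response element TGACGTCA, the CCAAT box CCAAT and the TATA box TATAAA.
Sst: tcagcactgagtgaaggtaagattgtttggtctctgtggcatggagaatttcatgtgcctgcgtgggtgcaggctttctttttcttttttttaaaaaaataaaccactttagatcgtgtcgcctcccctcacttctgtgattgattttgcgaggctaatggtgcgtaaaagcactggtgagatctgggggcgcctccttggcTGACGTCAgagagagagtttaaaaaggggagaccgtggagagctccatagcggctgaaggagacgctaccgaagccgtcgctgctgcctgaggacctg
Hhex: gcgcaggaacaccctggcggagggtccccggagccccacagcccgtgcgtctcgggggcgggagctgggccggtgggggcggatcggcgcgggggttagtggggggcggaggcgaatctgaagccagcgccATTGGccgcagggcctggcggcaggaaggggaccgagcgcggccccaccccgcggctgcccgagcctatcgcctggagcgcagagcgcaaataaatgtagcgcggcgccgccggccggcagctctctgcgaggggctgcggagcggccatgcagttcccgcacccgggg
Ghsr: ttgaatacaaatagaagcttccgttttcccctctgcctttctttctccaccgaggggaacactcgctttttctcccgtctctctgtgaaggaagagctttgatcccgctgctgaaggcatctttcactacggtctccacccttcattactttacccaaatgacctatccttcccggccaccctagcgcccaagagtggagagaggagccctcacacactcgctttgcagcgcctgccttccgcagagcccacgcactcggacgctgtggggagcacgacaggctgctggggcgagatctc
The Sst window held 1 cAMP response element, the textbook binding site of the factor CREB, at bases 48 to 41 before the start, while 1.79% of 32851 promoter windows of this length held one. The Hhex window held 1 CCAAT box on the opposite strand at bases 119 to 115 before the start, against 37.4% of all windows, and its base composition was 75.7% G and C, against 50.3% in Sst and 56.3% in Ghsr. No match to these 3 motifs was found in the Ghsr window, and the TATA box letters, held by 13.6% of all windows, were in none of the 3.

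The libraries were those of islets by their leading hormones: Ins1 and Ins2 together took between 53.7% and 70.8% of the summed FPKM in the CD libraries and between 62.6% and 75.1% in the HFD libraries. No 2 islet libraries were identical, and libraries of the same group correlated at r of at least 0.985 across genes. Acinar markers ranged in summed level from 6935 to 167350 FPKM in CD and from 4677 to 57708 FPKM in HFD libraries. Their median was lower in HFD at weeks 4 (20203 FPKM in CD and 11788 FPKM in HFD), 12 (93298 FPKM in CD and 32730 FPKM in HFD), 16 (60224 and 18631 FPKM) and 24 (37731 and 20031 FPKM). It was higher in HFD at weeks 8 (23090 and 30623 FPKM) and 20 (15579 and 24269 FPKM). Of 15 acinar markers, the amylase genes Amy2a5 and Amy2b were called lower at week 12 (16.0% and 14.8% of CD, adjusted p = 0.032 and 0.014) and, with Try4 and Cela1, at week 16, Amy2b was called lower at week 24, and none was called at the other weeks. In the mean over the 6 weeks, 7 of the 15 were called lower and 1, Prss1, higher, where 23.7% of all tested genes were called lower. Fits with the summed acinar level as a covariate were run for the mean over weeks and the trends only, and changed no call of Sst, Hhex and Ghsr. That level itself differed between the diets, with medians of 31521 FPKM in CD and 20786 FPKM in HFD. The part of acinar tissue in the results was otherwise not tested. The mRNA depth of each library is unknown from the values, since they carry no counts. HFD minus CD was tested by limma on log2(FPKM + 1) with Benjamini-Hochberg adjustment over 13585 genes, and a gene is called where the adjusted p is under 0.05.

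Sst was among the abundant hormone transcripts in CD islets and fell under HFD, from a level near that of CD at week 4 to a small fraction of it at week 24. At week 4 the CD libraries held 4231, 4640, 4753 and 4333 FPKM and the HFD libraries 3917, 3774, 3840 and 3868 FPKM. At week 8 the values were 3340, 3598, 3534 and 3384 FPKM in CD and 1779, 2512, 1714 and 2621 FPKM in HFD. The 2 diets did not overlap at either week, but the gap at week 4 was narrow, with the lowest CD library 1.08 times the highest HFD library. At week 12 CD held 3711, 3600, 3937 and 3812 FPKM and HFD 1464, 1701, 1398 and 2036 FPKM. At week 16 CD held 2693, 2113, 2757 and 2832 FPKM and HFD 493, 537, 580 and 1107 FPKM. By then 3 of the 4 HFD libraries lay close together and 1, from mouse HFD418, stood above them. At week 20 CD held 4174, 3897, 3256 and 3850 FPKM and HFD 1676, 940, 487 and 669 FPKM. At week 24 CD held 2890, 2269, 2259 and 2662 FPKM and HFD 321, 339, 361 and 615 FPKM. The widest gap was at week 24, where the lowest CD library was 3.67 times the highest HFD library.

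**Figure D1:**
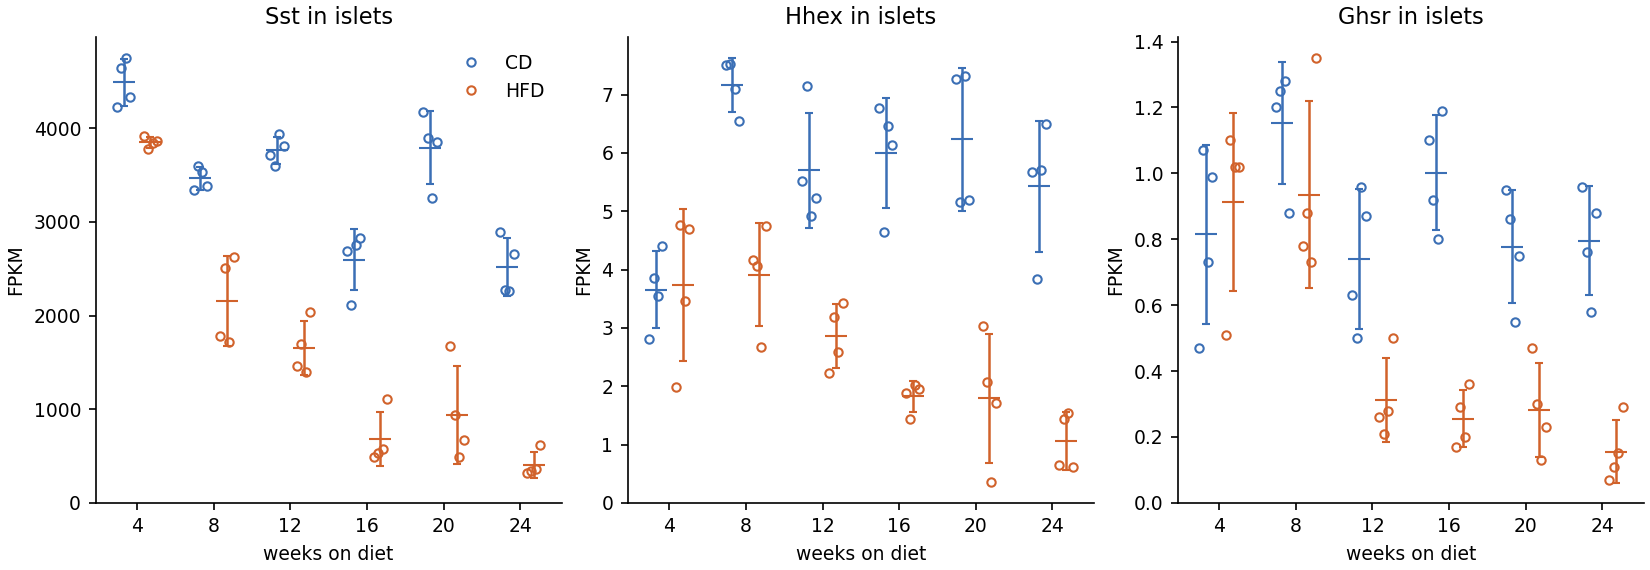
FPKM (y axis, linear and from 0) of Sst, Hhex and Ghsr in each islet library against weeks on diet (x axis), with CD in blue and HFD in orange. Circles are single mice, 4 for each diet and week, horizontal marks are means and error bars are SDs; the mean of Sst in HFD drops from 3850 to 409 FPKM between weeks 4 and 24, and that of Hhex from 3.73 to 1.06 FPKM.

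In order of week, the HFD mean of Sst was 85.8%, 62.2%, 43.8%, 26.1%, 24.9% and 16.2% of the CD mean. On the log2(FPKM + 1) scale the difference was −0.22 ± 0.059 (SE, 4 mice against 4) at week 4, with an adjusted p of 0.68 and an unadjusted p of 0.0033. Week 8 gave −0.71 ± 0.13 (adjusted p = 0.024), week 12 gave −1.21 ± 0.099 (adjusted p = 2.0e-05) and week 16 gave −2.01 ± 0.27 (adjusted p = 0.0053). The last time points gave −2.16 ± 0.33 (week 20, adjusted p = 0.013) and −2.66 ± 0.21 (week 24, adjusted p = 3.2e-04). In the same order of weeks, genes called lower in HFD made up 0%, 3.31%, 3.34%, 6.94%, 3.97% and 2.67% of those tested, so Sst fell from week 8 on against a background of a few percent. Of all calls at weeks 8, 12, 16, 20 and 24, 87.5%, 63.7%, 68.9%, 71.8% and 32% were lower in HFD, a split that depends on scaling: with median ratio scaling it was 50.3%, 69.1%, 70.8%, 52.1% and 56.2%, and with Ins1 and Ins2 left out of the totals 92.8%, 11.8%, 13.8%, 88.1% and 32.1%. No gene at all was called at week 4 by limma, although 973 had an unadjusted p under 0.05, and 3 were called without the filter and 26 with all 48 libraries in 1 fit. The week 8 call was the fragile one, since adjusted p rose to between 0.051 and 0.066 without any 1 of 6 of the 8 libraries (CD203, CD205, CD207, CD208, HFD211 and HFD213) and to 0.075 with median ratio scaling. Without mouse HFD518 the week 20 difference was −2.04 with an adjusted p of 0.054. In bulk islets, fewer delta cells, a larger share of RNA from other cells and less Sst RNA per delta cell cannot be told apart. The same holds for every gene below.

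Every HFD library lay below every CD library in all 6 weeks for Sst, in 5 weeks for Hhex and in 3 weeks for Ghsr. The share of all tested genes with that pattern was, from the first week to the last, 2.67%, 14.7%, 5.12%, 10.7%, 10.6% and 4.18%. Ranked by mean, Sst was highest in CD at week 4 (4489 ± 248 FPKM, SD), followed without overlap by HFD at week 4 (3850 ± 59.6 FPKM), and CD at weeks 20, 12 and 8 came next with 3794 ± 387, 3765 ± 144 and 3464 ± 122 FPKM. CD at week 12 did not overlap CD at week 8, which in turn was separated from CD at week 16 (2599 ± 329 FPKM) and week 24 (2520 ± 310 FPKM), which overlapped each other. From there each neighbour in the order overlapped the next: HFD at week 8 (2156 ± 476 FPKM), week 12 (1650 ± 289 FPKM), week 20 (943 ± 523 FPKM), week 16 (679 ± 287 FPKM) and week 24 (409 ± 139 FPKM). The CD levels were therefore not flat, and CD at weeks 16 and 24 stood below the other CD weeks.

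Hhex, the transcription factor of delta-cell identity, was far less abundant than Sst in FPKM, with medians of 5.69 and 3566 FPKM over the 24 CD libraries, and showed no call at week 4. The CD libraries of week 4 held 2.81, 3.86, 3.55 and 4.40 FPKM and the HFD libraries 1.99, 4.77, 3.46 and 4.70 FPKM. At week 8 CD held 7.51, 7.52, 7.09 and 6.54 FPKM and HFD 4.16, 4.06, 2.67 and 4.75 FPKM. Ranges overlapped fully at week 4 and not at all at week 8, where the mean was 7.17 FPKM in CD and 3.91 FPKM in HFD, after 3.66 and 3.73 FPKM at week 4. At week 12 CD held 5.52, 7.14, 4.92 and 5.23 FPKM and HFD 2.22, 3.19, 2.59 and 3.43 FPKM. At week 16 CD held 6.77, 4.64, 6.46 and 6.14 FPKM and HFD 1.89, 1.44, 2.02 and 1.95 FPKM. The HFD libraries of week 16 were tight, between 1.44 and 2.02 FPKM. At week 20 CD held 7.26, 5.16, 7.31 and 5.19 FPKM and HFD 3.03, 2.07, 0.35 and 1.71 FPKM. At week 24 CD held 5.67, 3.84, 5.71 and 6.49 FPKM and HFD 0.65, 1.44, 1.54 and 0.62 FPKM. The lowest value of all, 0.35 FPKM, was from mouse HFD517, which also had the lowest Sst of its group.

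In percent of the CD mean, Hhex in HFD stood at 102%, 54.6%, 50.1%, 30.4%, 28.7% and 19.6% from the first week to the last. The log2(FPKM + 1) difference was −0.013 ± 0.20 (SE) at week 4 with an adjusted p of 0.99. The next 3 time points gave −0.75 ± 0.12 (week 8, adjusted p = 0.013), −0.80 ± 0.13 (week 12, adjusted p = 9.6e-04) and −1.30 ± 0.11 (week 16, adjusted p = 2.0e-05). Week 20 gave −1.46 ± 0.30 (adjusted p = 0.034) and week 24 gave −1.65 ± 0.18 (adjusted p = 4.4e-04). At these low levels the pseudocount of 1 makes the log2 differences understate the falls. The week 20 call did not stand without any 1 of 6 of the 8 libraries, the exceptions being HFD511 and HFD517, with adjusted p up to 0.103, nor with a pseudocount of 0.1 (adjusted p = 0.064). Among group means, CD at weeks 8, 20, 16, 12 and 24 ranked highest (7.17, 6.23, 6.00, 5.70 and 5.43 FPKM), then HFD at week 8 (3.91 FPKM), HFD at week 4 (3.73 FPKM) and CD at week 4 (3.66 FPKM), each overlapping its neighbour. HFD at week 12 (2.86 FPKM) was clear of HFD at week 16 (1.83 FPKM), and the last 3 overlapped, with 1.79 FPKM at week 20 and 1.06 FPKM at week 24.

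Ghsr, the ghrelin receptor, was the scarcest of the 3 and was lower in HFD from week 12 on. At week 4 CD held 0.47, 1.07, 0.73 and 0.99 FPKM and HFD 0.51, 1.1, 1.02 and 1.02 FPKM. At week 8 CD held 1.2, 1.25, 1.28 and 0.88 FPKM and HFD 0.78, 0.88, 0.73 and 1.35 FPKM. The diets overlapped at both weeks, and the highest value of the whole set, 1.35 FPKM, was an HFD library. At week 12 CD held 0.63, 0.50, 0.96 and 0.87 FPKM and HFD 0.26, 0.21, 0.28 and 0.50 FPKM. At week 16 CD held 1.1, 0.92, 0.80 and 1.19 FPKM and HFD 0.17, 0.29, 0.20 and 0.36 FPKM. The ranges met at a single value at week 12 and were apart at week 16. At week 20 CD held 0.95, 0.86, 0.55 and 0.75 FPKM and HFD 0.47, 0.30, 0.13 and 0.23 FPKM. At week 24 CD held 0.96, 0.76, 0.58 and 0.88 FPKM and HFD 0.07, 0.11, 0.15 and 0.29 FPKM. No islet library was at 0 for Ghsr, and the HFD values of week 24 rest on 1 or 2 significant digits, since the values carry 2 decimals.

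Ghsr in HFD was 112%, 81.1%, 42.2%, 25.4%, 36.3% and 19.5% of the CD mean in order of week. The log2(FPKM + 1) differences understate these falls because the level is below the pseudocount of 1. They were 0.076 ± 0.14 (SE) at week 4 with an adjusted p of 0.90 and −0.16 ± 0.11 at week 8 with an adjusted p of 0.36. Week 12 gave −0.40 ± 0.093 (adjusted p = 0.013) and week 16 gave −0.67 ± 0.086 (adjusted p = 2.8e-04). Week 20 gave −0.47 ± 0.10 (adjusted p = 0.030) and week 24 gave −0.63 ± 0.092 (adjusted p = 7.0e-04). With a pseudocount of 0.1 the difference at week 24 was −1.86. The week 20 call was lost without any 1 of 6 of the 8 libraries, the exceptions being CD505 and HFD511, with adjusted p up to 0.098. By group mean Ghsr formed 2 tiers: CD at all weeks and HFD at weeks 8 and 4 lay between 0.740 and 1.15 FPKM, and HFD at weeks 12, 20, 16 and 24 lay at 0.313, 0.283, 0.255 and 0.155 FPKM. Every neighbour in this order overlapped the next.

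Across the 6 weeks together, the 3 genes were lower in HFD and the difference widened with time on diet. In a fit of all 48 islet libraries, the mean HFD minus CD difference over the weeks was −1.49 ± 0.094 (SE) for Sst (adjusted p = 1.9e-15), −0.997 ± 0.088 for Hhex (adjusted p = 6.9e-12) and −0.38 ± 0.045 for Ghsr (adjusted p = 9.0e-09), where 23.7% of tested genes were called lower. The 6 weekly differences were not equal for Sst (F test, adjusted p = 1.4e-05), Hhex (adjusted p = 0.0041) or Ghsr (adjusted p = 0.0088), a call made for 4.31% of genes. The slope of the difference per 4 weeks was −0.50 ± 0.055 for Sst (adjusted p = 9.5e-08), −0.31 ± 0.051 for Hhex (adjusted p = 8.2e-05) and −0.14 ± 0.027 for Ghsr (adjusted p = 7.9e-04), and 1.46% of genes had a called negative slope of this kind. Within HFD the slope was −0.62 ± 0.039 for Sst, −0.26 ± 0.036 for Hhex and −0.16 ± 0.019 for Ghsr, all called, where 9.37% of genes had a called negative slope. Within CD, Sst had a slope of −0.12 per 4 weeks (SE 0.039, adjusted p = 0.012), against 11.1% of genes with a called negative slope, while Hhex had a slope of 0.051 ± 0.036 (adjusted p = 0.28) and Ghsr of −0.019 ± 0.019 (adjusted p = 0.46). The CD means of Sst did not fall steadily, at 4489, 3464, 3765, 2599, 3794 and 2520 FPKM in order of week. Since each week was a different set of mice, slopes within a diet cannot separate time from other differences between those sets. The calls on the mean and on the slopes stayed on the same side of the threshold without any 1 of the 48 libraries. The log2(FPKM + 1) scale shrinks the differences of the scarcer Hhex and Ghsr, so these sizes cannot be compared between the genes. Among the alternatives other than leaving out libraries, the largest mean fall was −1.49 for Sst, −1.32 for Hhex and −0.992 for Ghsr. The steepest slope of the difference was −0.521, −0.446 and −0.387 in the same order.

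**Figure D2:**
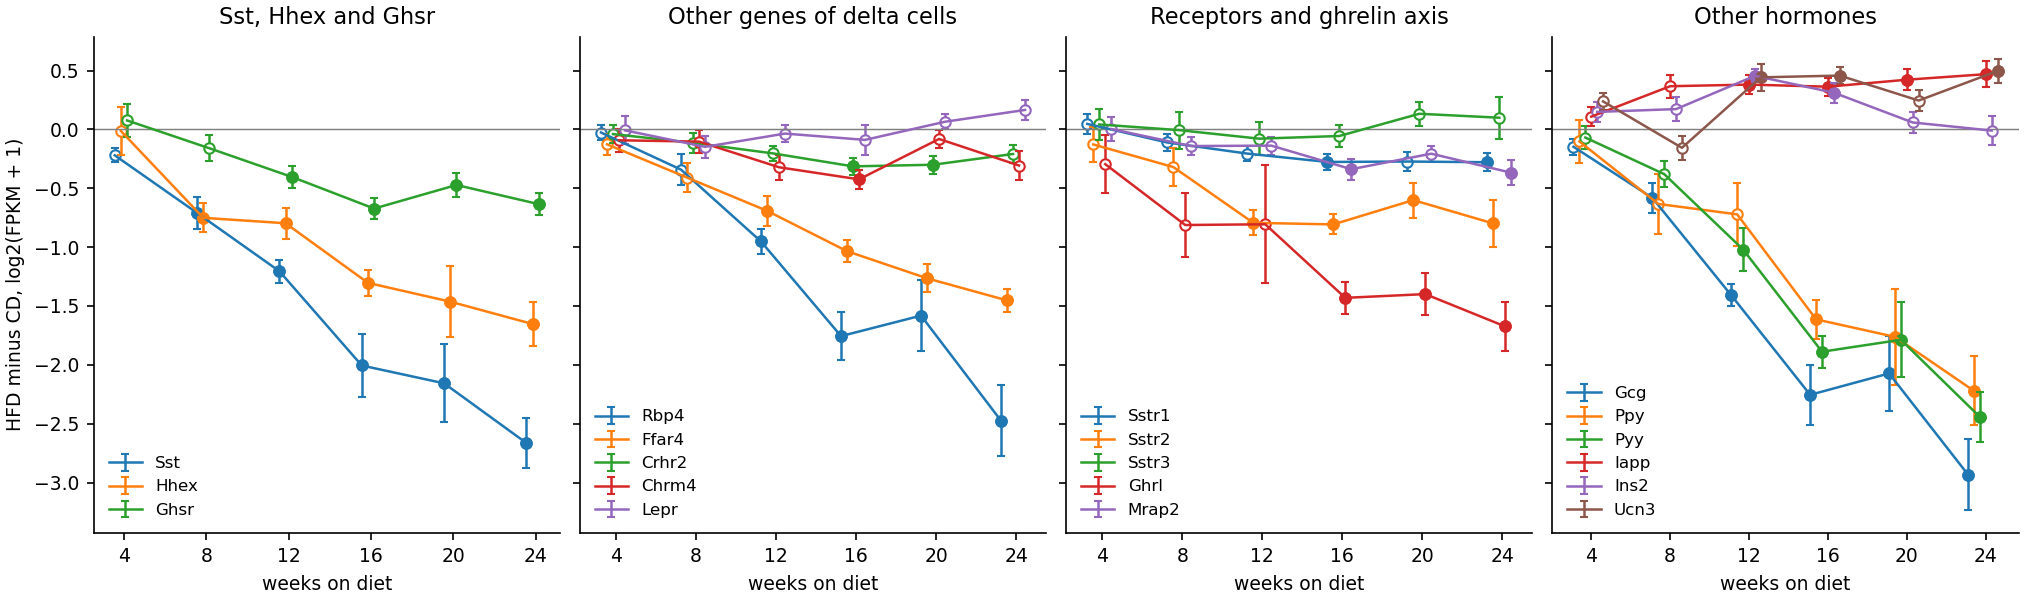
HFD minus CD on the log2(FPKM + 1) scale (y axis) against weeks on diet (x axis) for Sst, Hhex and Ghsr and for listed genes of delta cells, receptors and other hormones. Points are limma estimates from 4 against 4 islet libraries with SE bars, filled where the adjusted p is under 0.05. Sst runs from −0.22 to −2.66, Rbp4 and Gcg run beside it, and Sstr3 and Lepr stay near 0. Genes of low level, Hhex and Ghsr among them, are compressed on this scale, so their falls look smaller than in percent of CD.

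Whether the 3 genes fell by the same factor was asked with log2 ratios in each library, compared between diets within weeks (two-sided permutation test, 100000 resamples, Benjamini-Hochberg over 5 ratios). The ratio of Sst to Hhex was 0.885 times as high in HFD as in CD over the 6 weeks (log2 difference −0.18 ± 0.13, SE, adjusted p = 0.17), so a difference between them was not detected. With a pseudocount of 0.1 FPKM the ratio of Sst to Ghsr was 0.706 times as high in HFD (−0.50 ± 0.084, adjusted p = 2.5e-05) and lower in all 6 weeks, and that of Hhex to Ghsr 0.798 times (−0.33 ± 0.14, adjusted p = 0.031). Both rest on the pseudocount, which compresses the low Ghsr values: without one, the fold was 0.850 for Sst to Ghsr (adjusted p = 0.070) and 0.924 for Hhex to Ghsr (adjusted p = 0.48). The ratio of Sst to Hhex in turn was called with a pseudocount of 1 (−0.50, adjusted p = 7.5e-05).

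In the mean over the 6 weeks, Sst fell more than Rbp4, which encodes retinol-binding protein and in islets is rich in delta cells. The ratio of Sst to Rbp4 was 0.831 times as high in HFD as in CD (log2 difference −0.27 ± 0.039, SE, adjusted p = 2.5e-05), lower in all 6 weeks, and 0.833 times without a pseudocount (adjusted p = 5.0e-05). At week 4, when neither gene was called, this ratio was already 0.875 times as high in HFD, with no overlap between the libraries (exact permutation p = 0.029, the smallest that 4 against 4 allow, and 0.12 adjusted over 30 weekly ratios). At week 24 the ratio of Sst to Rbp4 was 0.947 times as high in HFD (exact permutation p = 0.69, and 0.76 adjusted), so no difference was detected there. Against Gcg, the glucagon precursor of alpha cells, the ratio of Sst was 1.05 times as high in HFD (0.072 ± 0.047, adjusted p = 0.17), higher in 3 weeks and lower in 3. The ratio of Sst to Gcg moved with the week in both diets.

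**Figure D3:**
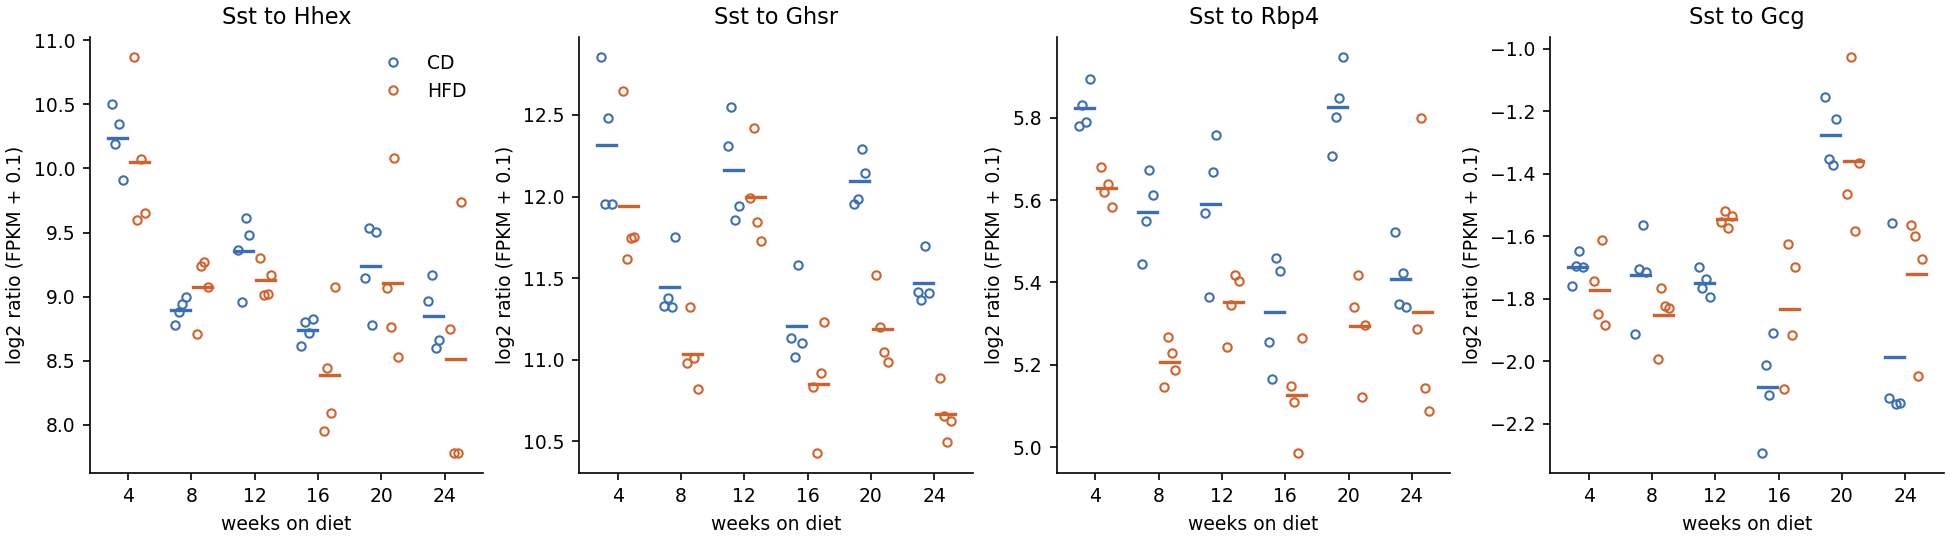
Log2 ratio of Sst to Hhex, Ghsr, Rbp4 and Gcg (y axis, FPKM + 0.1) in each islet library against weeks on diet (x axis), with CD in blue and HFD in orange. Circles are single mice and bars are means of 4; the ratio to Rbp4 is lower in HFD in all 6 weeks, while that to Gcg is higher in 3 weeks and lower in 3.

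Mice of the same diet and week also differed among themselves in step. After each group's mean was taken away, Sst and Rbp4 correlated across the 48 islet libraries at Pearson r = 0.918 (Spearman rho = 0.847) and Sst and Gcg at r = 0.884 (rho = 0.780), each with an adjusted permutation p of 2.3e-05 for both measures, the smallest that the resamples allow over 7 pairs. Without the 2 libraries farthest from the median of Sst, r was 0.883 and 0.826. Within CD alone r was 0.647 for Sst and Rbp4 and 0.684 for Sst and Gcg, and within HFD alone it was 0.942 and 0.926. Sst and Ghsr correlated at r = 0.689 (rho = 0.647, adjusted p = 2.3e-05 for both) and at 0.620 without the 2 farthest libraries. Sst and Hhex gave r = 0.461 (adjusted p = 0.13) and rho = 0.291 (adjusted p = 0.12), and r was 0.082 without the 2 farthest libraries, so what relation there was rested on those libraries. Hhex and Ghsr gave r = 0.429 (adjusted p = 0.044) and rho = 0.283 (adjusted p = 0.12), and r = 0.247 without the 2 farthest libraries. Sst and Ppy, the pancreatic polypeptide gene, gave r = 0.672 (adjusted p = 0.0029) and rho = 0.444 (adjusted p = 0.025), with r at 0.098 in CD and 0.748 in HFD and 0.467 without the 2 farthest libraries. Sst and Ins2 gave r = 0.024 (adjusted p = 0.89) and rho = −0.103 (adjusted p = 0.54), and r = 0.086 without the 2 farthest libraries.

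**Figure D4:**
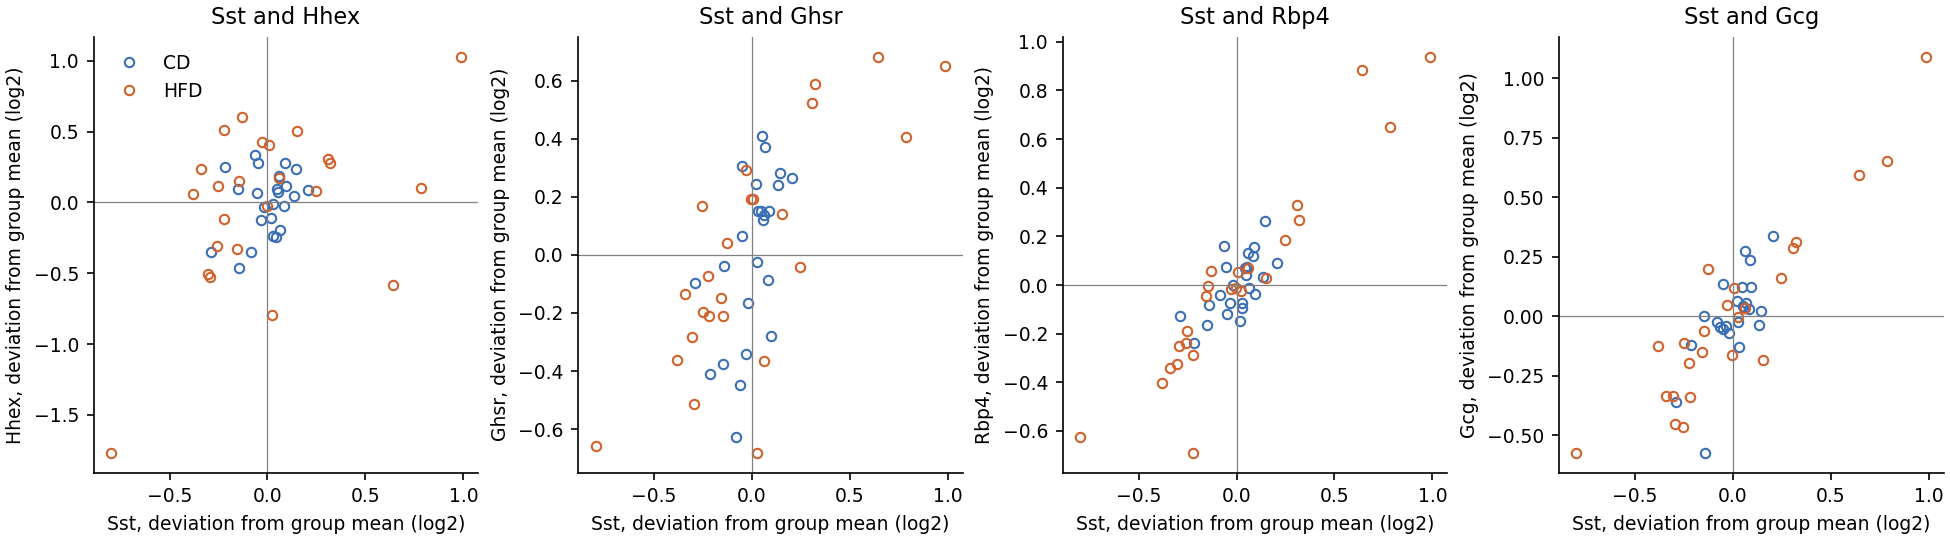
Deviation of Hhex, Ghsr, Rbp4 and Gcg from the mean of their own diet and week (y axis, log2 of FPKM + 0.1) against that of Sst (x axis), 1 circle for each of 48 islet libraries, with CD in blue and HFD in orange. Sst and Rbp4 (r = 0.918) and Sst and Gcg (r = 0.884) lie along a line, while Sst and Hhex scatter apart from 2 libraries at the corners.

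The genes most like each of the 3 were sought among 11642 genes with a mean of at least 1 FPKM, by the same within-group correlation over 48 libraries, as a description. Nearest to Sst were Rbp4 (r = 0.918), Gcg (0.884), Gm609 (0.811) and Pyy (0.788). Gcg is the glucagon gene of alpha cells, and Pyy encodes the hormone peptide YY. Nearest to Hhex were Gata6 (0.713), AW551984 (0.690), Thsd4 (0.675), Sash1 (0.674) and Dag1 (0.664). Nearest to Ghsr were Map3k15 (0.731), Dpp10 (0.707), Sst (0.689), Usf3 (0.679) and Cdh8 (0.674). Sst was thus among the 5 nearest genes of Ghsr but not of Hhex. The libraries share their composition in these correlations, since each value is relative to the library's total.

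Other genes known from delta cells split by how far they followed Sst. The list held Rbp4, the lipid receptor Ffar4, the urocortin receptor Crhr2, the leptin receptor Lepr, the muscarinic receptor Chrm4 and the gastrin receptor Cckbr. Of the 5 with enough signal to test, none was called at weeks 4 and 8, and 2, 4, 3 and 2 were called lower at weeks 12, 16, 20 and 24, with none called higher. Among all tested genes, 3.34%, 6.94%, 3.97% and 2.67% were called lower at weeks 12, 16, 20 and 24. Rbp4 dropped from 59.2 ± 6.09 FPKM (SD) in CD to 10.6 ± 5.25 FPKM in HFD at week 24, 17.9% of CD (log2 difference −2.48, adjusted p = 0.0049), having been at 98.0% at week 4. Ffar4, a receptor for long-chain fatty acids, fell from 2.88 ± 0.273 to 0.420 ± 0.129 FPKM at week 24, 14.6% of CD (log2 difference −1.45, adjusted p = 2.4e-06). These 2 were called at each week from 12 to 24. Crhr2 is the receptor through which urocortin 3 from beta cells stimulates delta cells. It was lower at week 16 (29.2% of CD, adjusted p = 0.017) and week 20 (38.2%, adjusted p = 0.0497), at levels of at most 0.54 FPKM. Its mean was 0.387 FPKM in CD and 0.212 FPKM in HFD. Only the CD mean lay above 0.25 FPKM, the filter for testing, which is set on the mean of all 48 libraries. Chrm4 was lower at week 16 (64.4%, adjusted p = 0.0038) and in the mean over the 6 weeks, by 0.22 (SE 0.037, adjusted p = 7.1e-06). At week 12 it was at 71.8% without overlap between the diets (adjusted p = 0.082), and its weekly differences were not shown to be unequal (F test, adjusted p = 0.19). Lepr was at 99.0% of CD at week 4 and 131% at week 24 and was never called (mean difference over 6 weeks −0.0083, adjusted p = 0.89), and Cckbr was at most 0.11 FPKM.

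Among the receptors that somatostatin acts on, Sstr3, the abundant one, was called at no week, and of the scarce ones Sstr1 and Sstr2 fell. It ranged from 46.9 to 90.5 FPKM in CD and from 42.0 to 92.0 FPKM in HFD, and its mean difference over the weeks was 0.022 ± 0.064 (SE, adjusted p = 0.81). Sstr2, the receptor known from alpha cells, had a median of 1.27 FPKM in CD and 0.405 FPKM in HFD and fell at weeks 12, 16, 20 and 24, to 16.7% of CD at week 24 (adjusted p = 0.044). Sstr1 fell at weeks 16 and 24 (to 30.4% and 30.1% of CD, adjusted p = 0.025 and 0.038). Its HFD mean was 0.1025 FPKM at week 16 and at week 24. Over the 48 libraries its mean was 0.273 FPKM, close to the filter of 0.25 FPKM for testing. By diet the mean was 0.351 FPKM in CD and 0.195 FPKM in HFD, so only the CD mean lay above that filter. Sstr4, Sstr5 and Cort, the gene of the related peptide cortistatin, were at most 0.10, 0.04 and 0.19 FPKM in any islet library and were not tested. Sst included, 1 of the 4 tested genes of this list was called lower at week 8, 2 at weeks 12 and 20 and 3 at weeks 16 and 24. The share of all tested genes called lower was 3.31%, 3.34%, 6.94%, 3.97% and 2.67% at weeks 8, 12, 16, 20 and 24.

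The ligand of Ghsr moved the same way as its receptor. Ghrl, the ghrelin gene, ranged from 2.41 to 13.4 FPKM in CD and from 0.11 to 7.89 FPKM in HFD islets. It fell at week 16 to 25.7% of CD (adjusted p = 6.2e-05), at week 20 to 25.3% (adjusted p = 0.0040) and at week 24 to 14.9% (adjusted p = 0.0013). Mrap2, an accessory protein that binds Ghsr, fell at weeks 16 and 24, to 38.3% and 33.0% of CD (adjusted p = 0.029 and 0.043). Mboat4, the enzyme that acylates ghrelin, was at most 0.11 FPKM, and Leap2, a peptide that blocks Ghsr, had a median of 0 in both diets. Ghsr included, 3 of the 3 tested genes of the ghrelin list were lower at weeks 16 and 24, when 6.94% and 2.67% of all tested genes were called lower.

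Among the enzymes that process prosomatostatin, changes were small beside that of Sst and 2 of them shifted with time on diet. Pcsk1, Pcsk2, Furin and Cpe were called at no single week, and over the 6 weeks Pcsk1 fell by 0.17 (SE 0.041, adjusted p = 9.6e-04) and Pcsk2 by 0.10 (SE 0.028, adjusted p = 0.0035). The slope of the difference per 4 weeks was −0.078 for Pcsk1 (adjusted p = 0.044), which went from 102% of CD at week 4 to 70.3% at week 20 and 82.5% at week 24. That slope was −0.054 for Cpe (adjusted p = 0.038), which was at 117% of CD at week 8, 83.1% at week 20 and 94.8% at week 24. These enzymes are also made by beta cells and alpha cells, which far outnumber delta cells. Ucn3, the beta-cell peptide that acts on Crhr2, rose at week 12 (136% of CD, adjusted p = 0.040), week 16 (138%, adjusted p = 8.6e-04) and week 24 (142%, adjusted p = 0.0070).

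Of 14 tested endocrine transcription factors besides Hhex, 3 or 4 were lower at each week from 8 on and none at week 4. From week 8 to week 24, 3.31%, 3.34%, 6.94%, 3.97% and 2.67% of all tested genes were called lower. Irx2, a factor of alpha cells, was lower at each of these weeks and stood at 22.5% of CD at week 24 (adjusted p = 7.4e-04). Neurod1 was lower at week 8 (76.2% of CD, adjusted p = 0.021) and was at 86.6% at week 4 (adjusted p = 0.69, unadjusted p = 0.013), and its weekly differences were not shown to be unequal (F test, adjusted p = 0.17). Nkx6-1, a beta-cell factor, was higher at weeks 12 and 16 (132% and 127%, adjusted p = 0.024 and 0.025), and Isl1 was higher at week 24 (122%, adjusted p = 0.025). Rfx6 and Mafa were called lower only in the mean over the 6 weeks, by 0.13 (SE 0.045, adjusted p = 0.022) and 0.30 (SE 0.12, adjusted p = 0.039). Pdx1, a factor that beta and delta cells share, was not called at any week (mean difference −0.042 ± 0.064, adjusted p = 0.63). The median difference over this list at week 24 was 0.022, beside 0.064 over all tested genes.

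The hormone genes Gcg, Pyy and Ppy fell together with Sst. Gcg was lower at each week from 8 to 24 and stood at 13.3% of CD at week 24 (log2 difference −2.93, adjusted p = 0.0024), Pyy was lower from week 12 (18.7% at week 24, adjusted p = 6.0e-04) and Ppy from week 16 (22.3% at week 24, adjusted p = 0.0069). Iapp, the beta-cell peptide amylin, was higher from week 12 to week 24 (137% at week 24, adjusted p = 0.020), and Ins1 and Ins2 were higher at weeks 12 and 16, with Ins2 at 137% and 124% of CD (adjusted p = 7.2e-05 and 0.033). The summed level of 7 alpha markers ranged at week 24 from 7304 to 13241 FPKM in CD and from 1329 to 2481 FPKM in HFD. Of these 7, 6 were called lower and 1, Gc, higher, where 2.67% of all tested genes were called lower. Of the 10 beta markers, 5 were higher and none lower at weeks 12 and 16. Among all 13585 tested genes, 259 and 426 were called higher at these weeks, and 2845 and 4706 with Ins1 and Ins2 left out of the totals. At week 8, when 3.31% of all tested genes were called lower, 1 beta marker was higher and 2 were lower, the glucose transporter gene Slc2a2 (58.2% of CD, adjusted p = 0.0072) and the zinc transporter gene Slc30a8 (73.9%, adjusted p = 0.022). Over the 6 weeks 5 were higher and 2 lower, Mafa and Slc2a2, the latter by 0.36 (SE 0.089, adjusted p = 0.0014). The sum of the beta markers ranged from 576840 to 853110 FPKM in CD and from 617120 to 994600 FPKM in HFD. The PP markers Ppy and Sertm1 were both lower from week 16, and their sum at week 24 ranged from 1578 to 2510 FPKM in CD and from 300 to 680 FPKM in HFD. The part of the alpha, PP and beta changes in the levels of Sst, Hhex and Ghsr was not tested. With Ins1 and Ins2 left out of each library's total, the median of all genes shifted by 0.21 at week 12 and 0.16 at week 16, and Sst, Hhex and Ghsr were still called lower at every week at which they had been. Median ratio scaling turned the direction of no called gene named here. It took away the calls of Sst, Gcg, Irx2, Neurod1, Slc30a8, Gc and Sertm1 at week 8, Iapp at weeks 12 and 24 and Ins2 at week 16. Also lost were the calls of Crhr2, Sstr2 and Ppy at week 20, and of Isl1, Gc and the endothelial marker Plvap at week 24. With Ins1 and Ins2 left out of the totals, Gc lost its calls at weeks 8 and 24 (adjusted p = 0.0589 and 0.0595).

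Markers of non-endocrine cells that may also use Hhex moved in both directions. Of 6 tested ductal markers, 1 was called lower at week 12, 3 at week 16, 2 at week 20 and none at week 24. Among all tested genes, 3.34%, 6.94%, 3.97% and 2.67% were called lower at these weeks. The keratin gene Krt19, the ductal factor Sox9 and the mucin gene Muc1 were lower at week 16, at 24.7%, 19.5% and 25.1% of CD (adjusted p = 0.044, 0.019 and 2.3e-04), when Hhex was at 30.4%. Muc1 was also lower at week 12 (30.5%, adjusted p = 0.029), and Krt19 and Sox9 at week 20 (28.0% and 36.6%, adjusted p = 0.0025 and 0.046). At week 24, with Hhex at 19.6%, these markers were at 89.6% (Krt19), 44.0% (Sox9) and 60.0% (Muc1) of CD, none of them called. The summed ductal level, from 132 to 200 FPKM in CD and from 120 to 214 FPKM in HFD, was mostly Krt7, which had a mean of 118 FPKM over the 48 libraries and was called at no week. The part of the ductal changes in the level of Hhex was not tested. The summed endothelial markers ranged from 174 to 240 FPKM in CD and from 177 to 312 FPKM in HFD. At week 24, 4 of 7 were called higher and none lower, where 771 of 13585 tested genes were called higher. Plvap lost its call with Ins1 and Ins2 left out of the totals (adjusted p = 0.058) and with median ratio scaling (adjusted p = 0.16). The part of the endothelial changes in the level of Hhex was not tested. Macrophage markers ranged in sum from 48.5 to 103 FPKM in CD and from 41.7 to 136 FPKM in HFD, and stromal markers from 22.4 to 83.1 FPKM and from 32.6 to 87.7 FPKM. The hepatocyte list was dominated by Ttr, which alpha cells also make. Without Ttr its sum had a median of 2.01 FPKM in CD and 5.27 FPKM in HFD islets.

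In the livers of the same mice the 3 genes took 3 different levels. Hhex was several times higher in liver than in islets, with a range of 20.4 to 70.2 FPKM and a median of 35.7 FPKM in CD and a range of 15.1 to 76.1 FPKM and a median of 39.5 FPKM in HFD, and the diets overlapped at each of the 6 weeks. Sst had a median of 0.08 FPKM in CD livers, with 9 of 24 libraries at 0, and a median of 0 in HFD livers, with 16 of 24 at 0, and the highest value was 8.89 FPKM in a CD liver of week 12. Ghsr was listed at 0 in 47 of 48 livers and at 0.01 FPKM in 1. Liver RNA in the islet libraries was slight by Alb, the albumin gene, which had a median of 0.58 FPKM in CD and 2.78 FPKM in HFD islets and at most 48.8 FPKM, against a median of 32851 FPKM in liver.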

How the data were processed

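Islets and livers of 48 mice were sequenced on a BGISEQ-500 after poly(A) selection and random priming. The FPKM values were deposited by the authors per gene and library, with 2 decimals. Per the labels and the submitters' processing notes, the tools were HISAT2 2.0.4, Bowtie2 2.2.5, RSEM 1.1.12 and DESeq2 with build GRCm38.p5; their roles are not given in the sources used here. The same table holds log2 ratios, p-values and q-values of the authors' comparisons, which were not used. Of 21990 genes, 20155 had values. No read counts were used, so the sampling error of single values is unknown.

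Groups came from the sample titles. HFD was compared with CD within each week (4 against 4 libraries) and over all 48 islet libraries by limma 3.58.1 in R 4.3.3, with a trended prior and robust variance estimates, on log2(FPKM + 1), for genes with a mean of at least 0.25 FPKM over the 48 islet libraries. Benjamini-Hochberg adjustment ran over 13585 genes. Ratios and correlations used log2(FPKM + 0.1) in Python 3.11.15. The fits were tested on simulated data. Replicates are separate mice. Named genes were every listed gene called in at least 1 week or over the 6 weeks, every gene of the delta-cell, somatostatin receptor and ghrelin lists, and the 5 genes most like each of Sst, Hhex and Ghsr. Some genes that meet this rule are not reported here. Genes and lists were chosen with earlier results of these data known. Alternatives were another pseudocount, other filters, 2 scalings, 1 fit for all libraries, acinar markers as a covariate, and each library or week left out.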

Additional observations from a re-analysis of the deposited data

Results flagged for a closer look

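Among the 36 sets of 4 libraries of Sst, Hhex and Ghsr, 3 had 1 library far from the other 3, where chance flags about 1 set in 20. Sst was 1107 FPKM in mouse HFD418 at week 16, against 493 to 580 FPKM in the other HFD libraries of that week. Sst was 615 FPKM in mouse HFD617 at week 24, against 321 to 361 FPKM in the others. Ghsr was 0.51 FPKM in mouse HFD112 at week 4, against 1.02 to 1.1 FPKM. Mouse HFD418 also had the highest Ghsr of its group, 0.36 FPKM, and mouse HFD617 the highest Ghsr of its group, 0.29 FPKM, but the lowest Hhex, 0.62 FPKM. The effect of HFD differed between the 6 weeks for all 3 genes by the F test of limma on the 48 islet libraries, with adjusted p of 1.4e-05 for Sst, 0.0041 for Hhex and 0.0088 for Ghsr.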

How the results depend on the processing

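The mean difference over 6 weeks, the trends and the weekly calls at weeks 16 and 24 of Sst, Hhex and Ghsr stayed on their side of the threshold under each alternative run, except that Ghsr passed the filter of 1 FPKM at weeks 4 and 8 only. Without a filter on low values the calls lost were Sst at week 8 (−0.71, adjusted p = 0.090), Hhex at weeks 8 (−0.75, 0.073), 12 (−0.80, 0.063) and 20 (−1.46, 0.081), and Ghsr at weeks 12 (−0.40, 0.15) and 20 (−0.47, 0.070). Sst at week 8 was also not called with median ratio scaling (−0.60, adjusted p = 0.075) or all 48 libraries in 1 fit (−0.71, 0.053), nor Hhex at week 20 with a pseudocount of 0.1 (−2.02, 0.064). Hhex at week 4, never called, turned sign with insulin left out of the totals (0.024) and with median ratio scaling (0.0034). Leaving out 1 library at a time gave ranges of −0.81 to −0.61 for Sst at week 8, −2.49 to −1.89 for Sst at week 20, −1.68 to −1.15 for Hhex and −0.54 to −0.41 for Ghsr at week 20, and −0.12 to 0.19 for Hhex and −0.021 to 0.19 for Ghsr at week 4. The ratio of Sst to Hhex was called with a pseudocount of 1 (−0.50). The ratio to Ghsr was not called without a pseudocount, an alternative added after seeing the data, for Sst (−0.23) or Hhex (−0.11), and Hhex to Ghsr was not called without week 4 (−0.36), 8 (−0.27), 20 (−0.24) or 24 (−0.30). Counts of called genes moved more: over the alternatives the 0, 513, 713, 1369, 751 and 1134 genes called at weeks 4 to 24 became 0 to 26, 52 to 1656, 211 to 3225, 988 to 5460, 167 to 2393 and 609 to 1788. The 2, 4, 3 and 2 delta-cell genes called at weeks 12 to 24 became 1 to 4, 3 to 4, 1 to 3 and 2 to 4, and the 1, 2, 3, 2 and 3 genes of the somatostatin list called from week 8 on became 0 to 1, 2 to 3, 1 to 3, 0 to 3 and 1 to 3. The 1, 3, 2 and 3 genes of the ghrelin list called from week 12 on became 0 to 2, 1 to 3, 1 to 2 and 1 to 3. The 4, 4, 4, 3 and 4 transcription factors called from week 8 on became 0 to 4, 3 to 9, 3 to 7, 3 to 4 and 3 to 4. The causes were not tested. The trend within HFD was also added after seeing the data. No paired analysis was possible because CD and HFD mice carry different identifiers.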
